A study of Homo sapiens with 6 samples.

Results

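The genes described here encode the proteins particular to the U1, U2 and U4/U6.U5 tri-snRNP particles of the spliceosome, 33 genes on a splicing-sensitive array that named 843 genes in all. They were taken as a list by name, with older symbols counted, and not by their values, although earlier results of these data were known. Together they held 1379 of the 45220 features of the array, a feature being a row of the value table that reports an exon, a junction or another stretch of a transcript. A value could be tested for 32 of the 33, out of 775 genes tested. SF3B5, a small SF3B subunit with 1 feature, had no value on any array. Of the others, 23 genes had 3 or more features and 9 had 1.

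The study set Hep3B cells given 10 J/m2 of UV light, and harvested after 6 hours, against untreated Hep3B cells. Hep3B, derived from a human hepatoma, has no functional p53, so all samples shared that background. There were 3 biological replicates, and each was hybridized on a direct array, with the irradiated RNA in Cy5 and the untreated RNA in Cy3, and on a dye-swap array with the dyes exchanged, which gave 6 arrays. Every value is a log2 ratio of UV over untreated, positive where the irradiated cells were higher, and no level of a transcript in either group can be read from it. The label of the cells could not be checked against their markers, since 0 of 8 hepatoma markers were on the array. Of 8 markers of blood, endothelium and fibroblasts only CD14 was measured, at 0.25 ± 0.043 (SE, n = 3, limma, adjusted p = 0.00882).

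Splicing starts when the U1 snRNP pairs with the 5′ splice site and the U2 snRNP, held by the SF3A and SF3B complexes, pairs with the branch point, where U2AF has recognised the 3′ splice site. The U4/U6.U5 tri-snRNP then joins, U1 and U4 are displaced by helicases, and the catalytic centre forms around U6, U2 and the U5 protein PRPF8. Each particle is a small nuclear RNA wrapped in a shared ring of Sm or LSm proteins plus the particular proteins treated here. Most of these proteins are needed in every dividing cell.

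Promoter sequences give a view of these genes that the list did not use. RefSeq promoters on GRCh38.p14, from 250 bases before to 50 bases after a start site, were found for 29 of the 33 members. Among 12 motifs searched on both strands, the ETS motif CCGGAAG was picked out after the calls and the matches had been seen, so it is a description with no test. It was present in the promoters of 16 of 29 members (55.2%), against 10.3% of all promoters. By response, it was present for 10 of 11 members called higher after UV, 1 of 5 called lower and 5 of 12 that did not pass. PRPF3 and PHF5A, which were among the deepest falls, had no promoter entry, nor had SF3B3 and SNU13. The division rests on higher calls of which 7 of 12 had opposite signs in the 2 dye orientations, 3 passed in each orientation by itself, and 4 members in all were called higher without replicate 3. Among the other tested genes, the motif was in 21.9% of those called higher, 22.4% called lower and 18.3% that did not pass. Since the motif was picked after its matches in the members were seen, a smaller division in other genes lends theirs no support. The windows below show the motif in capitals, in the strand of the gene, for the 10 members called higher that held it.
SNRPC, chr6:34757279-34757309, plus strand: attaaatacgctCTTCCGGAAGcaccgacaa
SF3A1, chr22:30356925-30356955, minus strand: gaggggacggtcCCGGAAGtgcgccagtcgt
SF3A2, chr19:2236803-2236833, plus strand: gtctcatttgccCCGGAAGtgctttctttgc
SF3B4, chr1:149927811-149927841, minus strand: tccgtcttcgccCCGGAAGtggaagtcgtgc
SF3B6, chr2:24076467-24076497, minus strand: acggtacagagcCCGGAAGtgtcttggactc
SNRNP200, chr2:96305565-96305595, minus strand: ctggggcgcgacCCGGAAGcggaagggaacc
PRPF6, chr20:63981014-63981044, plus strand: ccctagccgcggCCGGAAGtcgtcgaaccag
PPIH, chr1:42658310-42658340, plus strand: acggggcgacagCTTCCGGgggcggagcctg
SART1, chr11:65961702-65961732, plus strand: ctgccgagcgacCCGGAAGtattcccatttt
USP39, chr2:85612061-85612091, plus strand: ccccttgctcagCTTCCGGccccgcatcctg

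The SNRPC window holds the motif on both strands, overlapping, and the PPIH and USP39 windows hold it as its reverse complement. PRPF31 was the member called higher whose promoter lacked it, and SNRPA1 the member called lower whose promoter held it. The longer motif CGGAAGTG, which overlaps the ETS motif, was present for 5 of 29 members (17.2%) and 4% of all promoters. Among the other tested genes it was present for 9.38% of those called higher, 11% of those called lower and 7.69% that did not pass. The motif GGAAGTG, also searched, shares the letters GGAAG with the ETS motif and divided the members less. It was present for 4 of 11 called higher, 1 of 5 called lower and 2 of 12 that did not pass. Of the general promoter elements, the GC box GGGCGG was present for 20 of 29 members (69.0%) and 45.0% of all promoters, the CCAAT box for 9 of 29 (31.0%) and 34.6%, and the TATA box TATAAA for 1 of 29 (3.45%) and 11.5%. The other tested genes of the array held the GC box more often than the members, at 74.5% of those called higher, 75.7% of those called lower and 78.1% of those that did not pass, and likewise the CCAAT box, at 40.6%, 49.3% and 55.6%. A gene with several listed promoters was counted when any of them held a motif, and the share of all promoters counts each promoter by itself. Absence of a match says only that these letters were not in the window. The 250 bases before the start of SNRNP200, which rose on every array, and of PRPF4 and RBM17, which fell on every array, are given for comparison, with the ETS motif in capitals where present. Only CCGGAAG and its reverse complement are in capitals, and the PRPF4 stretch holds GGAAGTG as its reverse complement.
SNRNP200, chr2:96305547-96305796, minus strand: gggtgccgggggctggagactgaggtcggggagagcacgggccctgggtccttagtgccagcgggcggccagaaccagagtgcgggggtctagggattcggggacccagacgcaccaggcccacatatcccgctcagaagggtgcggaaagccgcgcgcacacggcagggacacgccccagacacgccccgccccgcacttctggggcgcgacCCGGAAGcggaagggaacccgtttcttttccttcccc
PRPF4, chr9:113275408-113275657, plus strand: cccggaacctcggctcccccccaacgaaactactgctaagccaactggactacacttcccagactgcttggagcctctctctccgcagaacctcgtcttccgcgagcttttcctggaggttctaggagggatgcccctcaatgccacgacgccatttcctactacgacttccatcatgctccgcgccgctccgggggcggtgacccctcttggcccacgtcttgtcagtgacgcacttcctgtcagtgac
RBM17, chr10:6088784-6089033, plus strand: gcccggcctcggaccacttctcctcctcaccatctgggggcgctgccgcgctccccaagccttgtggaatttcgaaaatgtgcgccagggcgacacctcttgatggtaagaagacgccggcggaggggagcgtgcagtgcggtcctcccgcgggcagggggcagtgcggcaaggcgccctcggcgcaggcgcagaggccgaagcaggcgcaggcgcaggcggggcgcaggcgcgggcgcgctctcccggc

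As a group these genes moved little after UV, and a few went clearly down. The U4/U6 protein genes PRPF4 and PRPF3, the U2-associated RBM17 and the SF3B gene PHF5A fell most, and SF3B4, SF3A2 and the helicase gene SNRNP200 rose most. PRPF4, PHF5A and SF3B4 had 1 feature each, and SF3A2 was at 0.56 on direct arrays and 0.039 on dye-swap arrays. Under limma with Benjamini-Hochberg adjustment over all 775 genes, 7 of 32 members (21.9%) were lower at an adjusted p under 0.05, where 41.4% of all tested genes were lower. Another 12 members (37.5%) were higher, where 30.3% of all tested genes were. The remaining 13 did not pass. Genes with 1 feature made up 9 of the 32 members but 309 of the 775 tested genes. Among genes with 3 or more features, 34.8% of members and 34.8% of all genes were higher. In that set 21.7% of members and 35.8% of all genes were lower. The RNA came from bulk cultures, so fewer cells of a kind and less RNA per cell cannot be told apart. With a fold over 1.3 required as well, 2 members were lower, PRPF4 and RBM17, against 18.8% of all genes. SF3B4 was the 1 member higher, against 2.06%. Among genes with 3 or more features, 1 of 23 members and 42 of 466 genes were lower past that fold, and 0 and 2 were higher. The median log2 ratio over the members was 0.037, beside -0.027 over all tested genes. The median size of the log2 ratio, sign ignored, was 0.085 over the members and 0.14 over all tested genes. With 3 or more features required, the medians were 0.026 and 0.0057, and the median sizes 0.079 and 0.10.

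**Figure D1:**
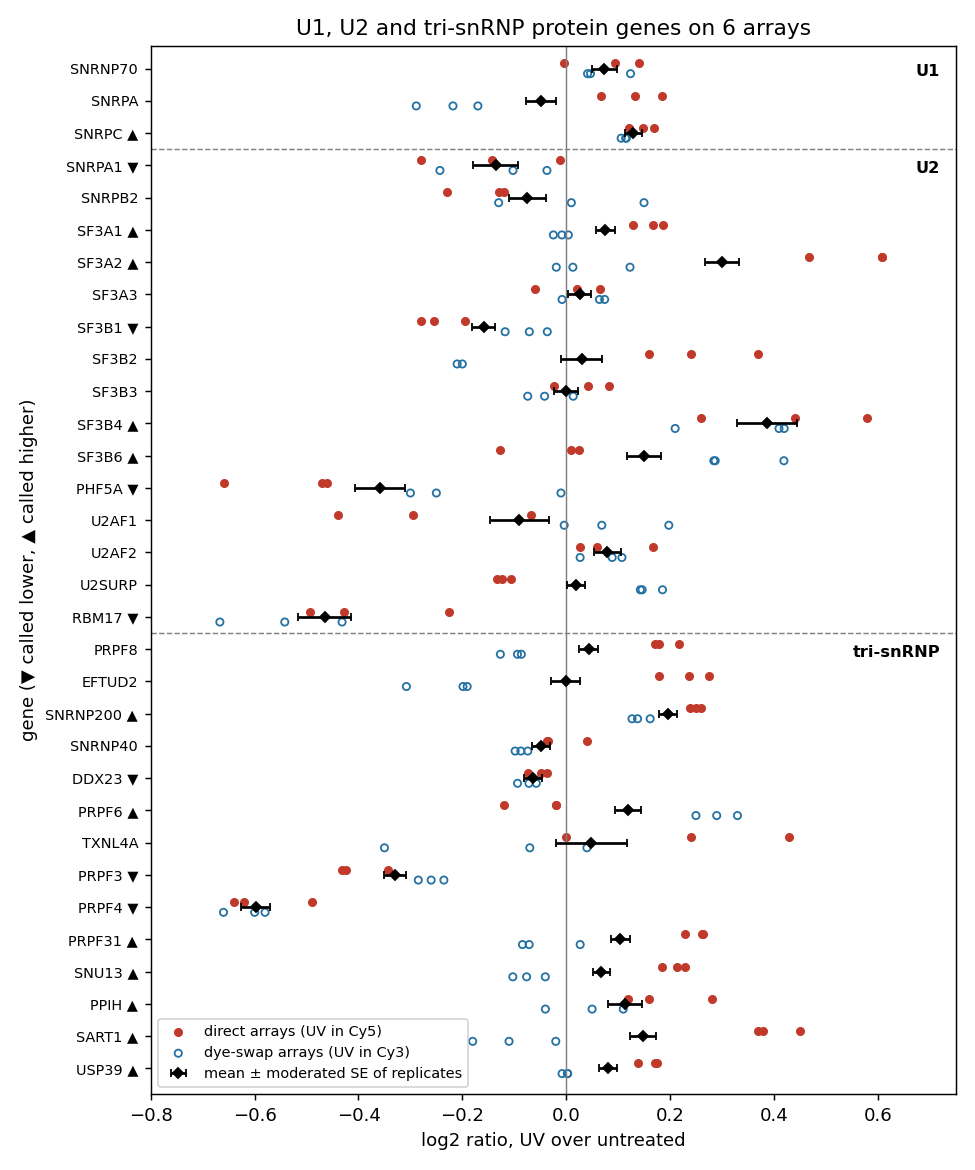
Log2 ratio of UV over untreated (horizontal axis) for the 32 members with a value, grouped by particle. Filled points are the 3 direct arrays, open points the 3 dye-swap arrays, and the diamond with its bar is the mean of the replicates with limma's moderated SE. The 7 genes called lower lie below 0 on all 6 arrays, while several genes called higher have their dye-swap points at or below 0.

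The dyes set a limit on the small rises that has to be read with every value. A change in the cells should appear alike in both orientations, yet the 2 orientations differed, by limma on their difference within replicates, for 20 of 32 members, where they differed for 51.9% of all tested genes. That count was 8 without replicate 2 and 10 without replicate 3. The direct arrays were above the dye-swap arrays for 13 of these members and below for 7. All 7 members called lower were below 0 on all 6 arrays. Of the 12 called higher, only 3 were above 0 on all 6 arrays, and 7 had orientation means of opposite sign. Called in each orientation by itself with the same sign were PRPF4, PRPF3 and RBM17 as lower, where 32.3% of all genes met that rule, and SF3B4, SNRNP200 and SNRPC as higher, where 12.3% met it. This last rule was added after the values were seen. The calls also rested on few replicates. Without replicate 3, 8 of the 19 calls remained, and those of DDX23, PPIH, PRPF31, SF3A1, SF3B1, SF3B4, SF3B6, SNRPA1, SNRPC, SNU13 and USP39 were lost. Without replicate 1, 11 remained, and those of DDX23, PPIH, PRPF31, PRPF6, SF3A1, SNRPA1, SNU13 and USP39 were lost. Without replicate 2 all 19 remained and 7 were added.

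**Figure D2:**
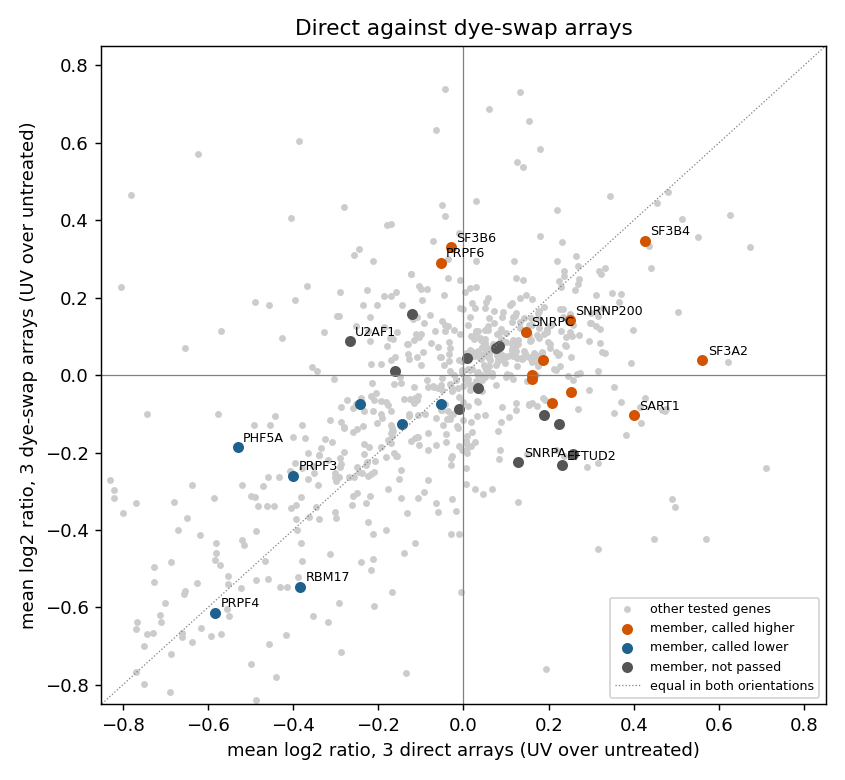
Mean log2 ratio over the 3 dye-swap arrays (vertical axis) against that over the 3 direct arrays (horizontal axis), both as UV over untreated. Coloured points are members by call, grey points are 671 other tested genes, and 72 other tested genes lie outside the axes. SF3B2 has 2 dye-swap arrays. RBM17, PRPF3 and PRPF4 lie low on both axes, whereas SF3B6 and PRPF6 on the upper left and SART1 on the lower right are called higher with orientation means of opposite sign.

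Of the U1 proteins, SNRPC, the zinc finger protein that contacts the 5′ splice site pairing, was the 1 called of 3. On the whole array, 30.3% of tested genes were called higher and 41.4% lower. SNRPC was called higher. Its log2 ratio was 0.12, 0.15 and 0.17 on direct arrays and 0.12, 0.11 and 0.11 on dye-swap arrays. All 6 arrays were close together and above 0, which gave 0.13 ± 0.016 (SE, n = 3, adjusted p = 0.00382), a fold of 1.09. SNRNP70, which binds the first stem loop of U1 RNA, gave 0.14, -0.0050 and 0.094 on direct arrays and 0.041, 0.047 and 0.12 on dye-swap arrays. Its mean of 0.074 ± 0.025 did not pass (adjusted p = 0.0563), although 5 of 6 arrays were above 0. SNRPA, which binds another stem loop of U1 RNA, was above 0 on all direct arrays, at 0.19, 0.068 and 0.13, and below 0 on all dye-swap arrays, at -0.17, -0.29 and -0.22. The 2 orientations did not overlap, and the mean of -0.048 ± 0.029 did not pass (adjusted p = 0.201).

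The 15 tested genes of the U2 particle were split, with 4 lower and 4 higher (26.7% each) and a median of 0.019. Among all tested genes, 41.4% were lower and 30.3% higher. In the core, SNRPA1, which encodes a leucine-rich U2 protein, was called lower at -0.14 ± 0.043 (adjusted p = 0.0476), with all 6 arrays between -0.28 and -0.011. That call was lost under a robust prior, with the median over features and in either orientation by itself. SNRPB2, which encodes its RNA-binding partner and had 1 feature, was between -0.23 and -0.12 on direct arrays and between -0.13 and 0.15 on dye-swap arrays, and did not pass.

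The SF3A complex, a trimer that helps to bring U2 to the branch point, had 2 of 3 genes called higher and none lower. The shares over all tested genes were 30.3% higher and 41.4% lower. SF3A2 had log2 ratios of 0.61, 0.47 and 0.61 on direct arrays and 0.013, -0.019 and 0.12 on dye-swap arrays. All direct values were above all dye-swap values, and the mean of 0.30 ± 0.033 (fold 1.23, adjusted p = 0.00252) lay between orientations 0.52 apart. On the dye-swap arrays alone SF3A2 was at 0.039 and did not pass. SF3A1 was at 0.19, 0.13 and 0.17 on direct arrays and at -0.0082, -0.025 and 0.0043 on dye-swap arrays, with a mean of 0.075 ± 0.018 (adjusted p = 0.0222). SF3A3, the third subunit, had a mean of 0.026 ± 0.022 over 119 features and did not pass.

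Within SF3B, the complex that encloses the branch point adenosine, the genes of different subunits moved in opposite directions. SF3B4, an RNA-binding subunit with 1 feature, had log2 ratios of 0.58, 0.26 and 0.44 on direct arrays and 0.42, 0.21 and 0.41 on dye-swap arrays. It was the highest member, at 0.39 ± 0.058 (fold 1.31, adjusted p = 0.00613), with all arrays above 0 and replicate 2 the lowest in both orientations. Its value fell under the fold of 1.3 without replicate 1, at 0.33, and without replicate 3, at 0.37, where the call was lost as well (adjusted p = 0.0530). SF3B6, the p14 subunit that lies near the branch point, ran the other way between the dyes, with -0.13, 0.025 and 0.010 on direct arrays and 0.29, 0.42 and 0.28 on dye-swap arrays, and its mean of 0.15 ± 0.033 was called higher (adjusted p = 0.0181).

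PHF5A, which with SF3B1 forms the pocket for the branch point adenosine, had 1 feature with log2 ratios of -0.66, -0.46 and -0.47 on direct arrays and -0.25, -0.010 and -0.30 on dye-swap arrays. All arrays were below 0, with the direct arrays lower than every dye-swap array, and the mean was -0.36 ± 0.049 (fold 1.28, adjusted p = 0.00466). SF3B1, the largest SF3B protein, had log2 ratios of -0.28, -0.19 and -0.26 on direct arrays and -0.071, -0.036 and -0.12 on dye-swap arrays. It was lower as well, at -0.16 ± 0.022 (adjusted p = 0.00506), with the same order of the orientations. In the dye-swap orientation by itself neither PHF5A (adjusted p = 0.0527) nor SF3B1 (adjusted p = 0.0546) passed. SF3B3, the WD40 scaffold of the complex, had a mean of -0.00042 ± 0.024 over 123 features. SF3B2, with 1 feature, gave 0.24, 0.37 and 0.16 on direct arrays and -0.20 and -0.21 on the 2 dye-swap arrays with a value, so its fit rested on replicates 2 and 3 and did not pass.

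Among the 4 U2-associated genes only RBM17 passed, as lower (25%). Of all tested genes, 41.4% were lower and 30.3% higher. RBM17 encodes SPF45, an alternative splicing factor that binds SF3B1 and U2AF2. Its log2 ratio was -0.49, -0.23 and -0.43 on direct arrays and -0.54, -0.43 and -0.67 on dye-swap arrays. The irradiated cells were lower on every array, at -0.46 ± 0.051 (fold 1.38, adjusted p = 0.00248), and this held under each of the 16 alternatives, with log2 ratios between -0.55 and -0.38. Both subunits of U2AF missed the threshold. U2AF2, which binds the polypyrimidine tract, was above 0 on all 6 arrays with a mean of 0.079 ± 0.026 (adjusted p = 0.0537). U2AF1, which recognises the AG at the end of the intron, was at -0.44, -0.068 and -0.30 on direct arrays and at 0.069, 0.20 and -0.0037 on dye-swap arrays. U2SURP had all direct arrays below 0 and all dye-swap arrays above it, with a mean of 0.019 ± 0.018.

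The tri-snRNP genes held the deepest fall and, of the 3 particles, the largest share of calls, with a median of 0.058. Of 14 genes, 3 were lower (21.4%) and 7 higher (50%), where 41.4% and 30.3% of all tested genes were. The share called was near that of the array, since 4 of 14 did not pass, beside 219 of 775 tested genes. The lower calls lay in U4/U6 and in DDX23. The median over the 14 genes was 0.19 on direct arrays and -0.080 on dye-swap arrays, and 6 of the 7 higher calls were larger in the direct orientation.

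PRPF4 and PRPF3 encode proteins that bind each other and the U4/U6 duplex, and both fell. PRPF4, with 1 feature, had log2 ratios of -0.64, -0.49 and -0.62 on direct arrays and -0.66, -0.58 and -0.60 on dye-swap arrays. The orientations overlapped, and the mean of -0.60 ± 0.029 (fold 1.51, adjusted p = 0.000333) was the lowest among the members. PRPF3, with 72 features, had log2 ratios of -0.43, -0.34 and -0.42 on direct arrays and -0.26, -0.24 and -0.28 on dye-swap arrays. Its mean of -0.33 ± 0.022 (fold 1.26, adjusted p = 0.000615) was below the 1.3-fold limit in size, although every direct array was lower than every dye-swap array and all were well below 0. PPIH, the cyclophilin that completes this U4/U6 complex, did not follow them, with 0.12, 0.28 and 0.16 on direct arrays, 0.050, 0.11 and -0.040 on dye-swap arrays and a mean of 0.11 ± 0.033 (adjusted p = 0.0399).

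PRPF31 and SNU13, which bind the kink turn of U4 RNA together, were both called higher, where 30.3% of all tested genes were. Both had their direct arrays above every dye-swap array. PRPF31 was at 0.23, 0.26 and 0.26 on direct arrays and at 0.027, -0.071 and -0.084 on dye-swap arrays, with a mean of 0.10 ± 0.018 (adjusted p = 0.00900). SNU13 was at 0.18, 0.23 and 0.21 on direct arrays and at -0.040, -0.076 and -0.10 on dye-swap arrays, with a mean of 0.068 ± 0.017 (adjusted p = 0.0233). Fitted on the dye-swap orientation by itself, SNU13 was called lower, at -0.073 (adjusted p = 0.0474), and with the median over features its call was lost.

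In U5, SNRNP200 rose on every array. SNRNP200 is the helicase that unwinds U4 from U6. Its log2 ratio was 0.26, 0.25 and 0.24 on direct arrays and 0.16, 0.13 and 0.14 on dye-swap arrays, with a mean of 0.20 ± 0.017 (fold 1.15, adjusted p = 0.00125). The direct arrays were the higher, and the call held under each of its 16 alternatives, between 0.14 and 0.25. The other large U5 proteins, PRPF8 at the catalytic centre and the GTPase EFTUD2, had means of 0.043 ± 0.018 and -0.00091 ± 0.028 that did not pass. EFTUD2 was 0.28, 0.18 and 0.24 on direct arrays and -0.19, -0.31 and -0.20 on dye-swap arrays, so its mean near 0 came from orientations of opposite sign.

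PRPF6, which bridges U5 and U4/U6, had 1 feature with log2 ratios of -0.020, -0.020 and -0.12 on direct arrays and 0.33, 0.29 and 0.25 on dye-swap arrays. It was called higher, at 0.12 ± 0.025 (adjusted p = 0.0159), with every direct array below 0. DDX23, the helicase that releases U1 from the 5′ splice site, was slightly lower on all 6 arrays, which ran from -0.094 to -0.036, with a mean of -0.064 ± 0.017 (adjusted p = 0.0326). The DDX23 call was lost with the median over features and in the direct orientation by itself (adjusted p = 0.129). SNRNP40 and TXNL4A did not pass, at -0.048 ± 0.017 and 0.048 ± 0.068.

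The 2 proteins needed for the tri-snRNP to assemble and join, SART1 and USP39, were both called higher, where 30.3% of all tested genes were. SART1, with 1 feature, was at 0.38, 0.45 and 0.37 on direct arrays and at -0.020, -0.11 and -0.18 on dye-swap arrays, with a mean of 0.15 ± 0.025 (adjusted p = 0.00824). USP39 was at 0.17, 0.14 and 0.17 on direct arrays and at 0.0029, -0.0078 and 0.0025 on dye-swap arrays, with a mean of 0.080 ± 0.017 (adjusted p = 0.0154). The direct arrays were the higher for both, and neither gene passed when the dye-swap arrays were fitted by themselves.

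A gene mean can hide features that run against it. Of 1311 member features tested by limma over all 34301 named features, 271 (20.7%) were lower and 323 (24.6%) were higher, where 28.2% and 26.3% of all features were. The falls of PRPF3, SF3B1 and RBM17 were broad. In PRPF3 61 of 70 features were lower and none was higher, in SF3B1 28 of 32 were lower and none was higher, and in RBM17 28 of 30 were lower and 2 were higher. In SNRPA1 24 of 51 features were lower. SF3A2 had all 10 of its tested features higher, SF3B6 had 25 of 34 and SNRPC had 23 of 36, with none lower in any of these genes.

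Other members were mixed. Over all named features, 28.2% were lower and 26.3% higher. PRPF8, whose mean did not pass, had 21 of 98 features lower (21.4%) and 32 higher (32.7%), running from -0.27 to 0.35. SNRNP200 had 27 of 37 features higher and 4 lower. The 4 lower features of SNRNP200 were close together, at -0.22, -0.21, -0.21 and -0.20, beside a mean of 0.21 for the rest of the gene, and lay below the fold needed for a call against the rest of the gene. USP39 had 32 of 63 features higher (50.8%) and 7 lower (11.1%). DDX23 had 24 of 90 lower (26.7%), near the share of all features, and 1 higher. EFTUD2 had 2 lower and 1 higher of 31.

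**Figure D3:**
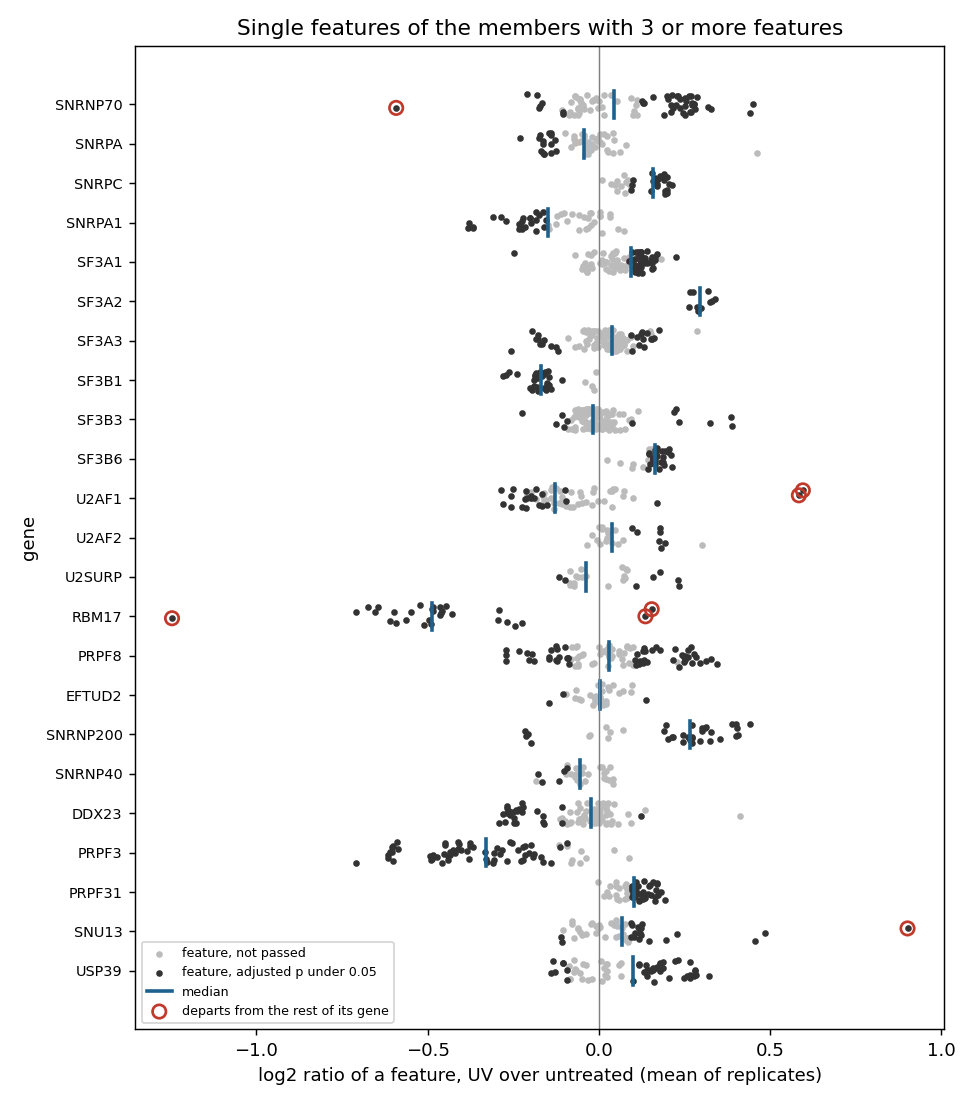
Log2 ratio of every tested feature (horizontal axis, UV over untreated, mean of replicates) in the 23 members with 3 or more features. Dark points passed an adjusted p of 0.05, grey points did not, the blue line is the median of the gene, and the red rings mark the 7 features called against the rest of their gene. PRPF3, SF3B1 and RBM17 lie to the left of 0 over nearly their whole set, SF3A2 and SNRPC to the right, and PRPF8 on both sides.

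To ask which features departed from their own gene, a splicing index was taken as the difference, on each array, between the log2 ratio of a feature and the average of its gene's remaining features. Of 1302 features in 23 members, 2 were lower and 5 were higher than the rest of their gene at an adjusted p under 0.05 and a fold over 1.4. Over all genes 2.16% of features were lower and 1.76% were higher. The 7 called features lay in RBM17, SNRNP70, U2AF1 and SNU13.

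RBM17 had 3 of them, on both sides of its fall. Feature 1841 was at -1.28, -1.01 and -1.08 on direct arrays and at -1.38, -1.26 and -1.47 on dye-swap arrays, far below the other features of the gene, with an index of -0.81 ± 0.030 (fold 1.75, adjusted p = 1.2e-05). Features 30462 and 36046 of RBM17 were above 0 on all 6 arrays, while the gene was below 0 on all of them. Their log2 ratios averaged 0.14 and 0.16, and their indices were 0.62 ± 0.036 and 0.64 ± 0.048.

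U2AF1 had 2 features that rose while most of the gene did not. Feature 5766 was at 0.56, 0.66 and 0.68 on direct arrays and at 0.62, 0.52 and 0.54 on dye-swap arrays. Feature 36844 was at 0.51, 0.67 and 0.56 on direct arrays and at 0.69, 0.50 and 0.58 on dye-swap arrays. The indices were 0.70 ± 0.052 and 0.69 ± 0.052 (fold 1.62 and 1.61, adjusted p = 0.000115 and 0.000118). The orientations overlapped for both features, unlike those of the gene mean. Of 66 U2AF1 features 20 were lower (30.3%), near the 28.2% of all named features. The reference genome holds a second, nearly identical U2AF1 copy, and the features of the array cannot be assigned between the copies here.

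SNRNP70 and SNU13 had 1 called feature each. Feature 4742 of SNRNP70 was at -0.71, -0.66 and -0.69 on direct arrays and at -0.46, -0.40 and -0.63 on dye-swap arrays, with an index of -0.67 ± 0.044 (fold 1.59, adjusted p = 6.7e-05). The irradiated cells were lower on every array there, whereas 35 of the 84 tested features of SNRNP70 were higher (41.7%) and 8 were lower (9.52%). Over all named features, 26.3% were higher and 28.2% lower. Feature 23622 of SNU13 was at 0.72, 0.70 and 0.68 on direct arrays and at 1.37 and 0.82 on the 2 dye-swap arrays with a value, so its index of 0.84 ± 0.072 (fold 1.79, adjusted p = 0.000401) rested on replicates 1 and 2. The sources used here do not give which exon or junction each of these features reports.

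**Figure D4:**
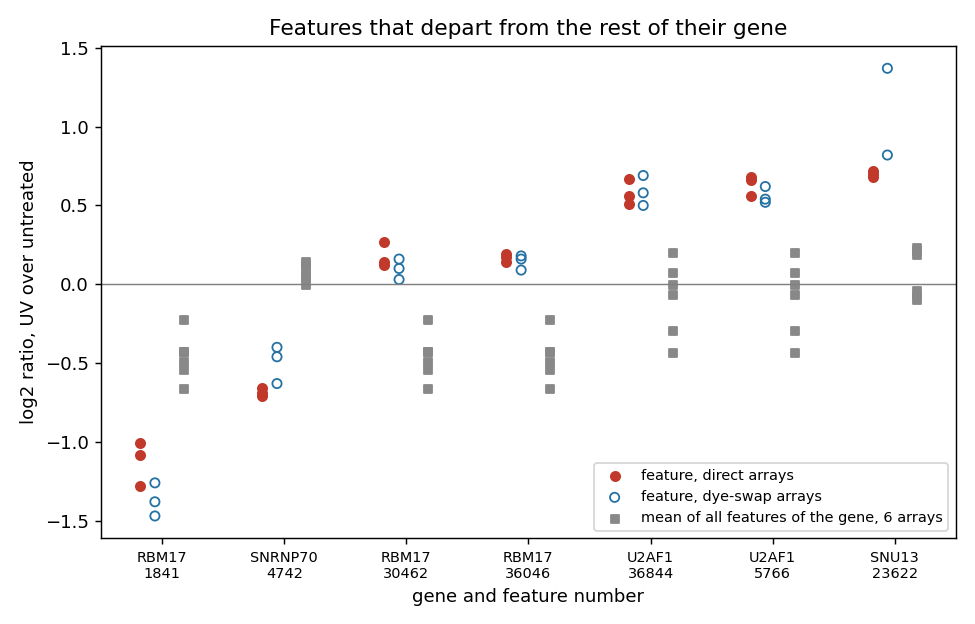
Log2 ratio of UV over untreated (vertical axis) for the 7 features called against the rest of their gene. Filled points are the direct arrays, open points the dye-swap arrays, and grey squares the mean over all features of the same gene on each of the 6 arrays. The 2 upper RBM17 features and both U2AF1 features are above 0 on every array, and every value of RBM17 feature 1841 is below every gene mean.

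Other spliceosome genes on the array gave a setting for these values. Of all tested genes, 41.4% were lower and 30.3% higher. Of the Sm ring, 6 genes were tested, with 2 lower and 2 higher, from SNRPB at -0.10 to SNRPE at 0.23. Of the LSm ring of U6, 5 were tested, with 2 lower and 3 higher, from LSM8 at -0.61 to LSM5 at 0.17 and with a median of 0.11. The Prp19 complex and its associates had 7 lower and 5 higher of 15, between CDC5L at -0.77 and XAB2 at 0.48, and had a median of -0.095. The spliceosomal ATPases outside the tri-snRNP had 4 lower and 2 higher of 6, with DHX15 lowest at -0.86 and a median of -0.33, and DHX15 was at -0.45 on direct arrays and -1.28 on dye-swap arrays. Further proteins linked to U1 and U2 had 5 lower and 3 higher of 9, between LUC7L3 at -0.40 and PRPF40B at 0.46, with a median of -0.24. Further proteins linked to the tri-snRNP had 3 lower and 0 higher of 4, with a median of -0.94. MFAP1 was lowest, at -2.09 ± 0.055 (adjusted p = 0.000109). PRPF4B, also on that list, was measured under its newer symbol PRP4K and is missing from these counts and the median. PRP4K was called lower, at -1.07 ± 0.043 over 57 features (adjusted p = 0.000229). The median of the members, 0.037, was thus above those of the last 4 lists, near that of the Sm ring, 0.047, and below that of the LSm ring. LSM5, CDC5L, XAB2, PRPF40B and MFAP1 rested on 1 feature each, and LSM5 lacked a value on some arrays. The lists and the members were not matched for the number of features. Over all tested genes the median was -0.13 for genes with 1 feature and 0.0057 for those with 3 or more. A difference between lists thus cannot be told apart from one of feature number, and it was not tested.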

How the data were processed

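The authors labelled total RNA with Cy3 and Cy5, corrected background with normexp and normalized by LOWESS, and the kits named in labels and methods differ. The deposited values were log2 ratios per feature and array, with 15.1% to 19.2% of cells empty for reasons not stated in the sources, as with the array's genome build. The direction came from the dyes in the labels and from the columns of both orientations, which correlated above 0. Without scanner signal, dim features could not be filtered, and the number of arrays limits the precision.

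Features were named through RefSeq by accession (38971), symbol (978) or synonym (197), and 5074 had no name. Gene values were means over features on an array, and both arrays of a replicate, paired by the titles, were averaged. Deviations of same-numbered arrays correlated at -0.0039, 0.46 and 0.10, but direct 1 with dye-swap 3 reached 0.42. The pairing by title thus shows in the values for replicate 2 and not for replicate 1. For replicate 3 it was weak, since dye-swap 3 followed direct 1 (0.42) more than direct 3 (0.10). Replicate means, their SEs, orientation differences and results without a replicate all rest on this pairing. At least 2 replicates were required, and whether replicates were separate cultures rests on the labels. An intercept was fitted with limma 3.58.1 (R 4.3.3, with statmod 1.5.0), and two-sided p-values were adjusted by Benjamini-Hochberg over all tested genes or named features. The index needed 3 features per gene. The moderated SE leaves out differences between features and between dyes. Procedures were tested on simulated data. Alternatives covered orientation, replicate block, dye term, scaling, prior, missing values, gene summary, thresholds and replicates left out. Members, lists, motifs and the rule for named genes (all members, and the extremes of each list) were chosen with earlier results of these data known.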

Additional observations from a re-analysis of the deposited data

Results flagged for a closer look

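The direct and dye-swap arrays differed in their log2 ratio of UV over untreated for 20 of 32 members. The test was limma on the difference within each of the 3 replicates, at an adjusted p under 0.05. The titles give both orientations of a replicate the same number and do not say that the RNA was the same. Deviations of same-numbered arrays correlated at -0.0039, 0.46 and 0.10 in replicates 1, 2 and 3. The difference, direct minus dye-swap, was positive for 13 members. It was 0.52 for SF3A2, 0.50 for SART1, 0.47 for SF3B2, 0.46 for EFTUD2, 0.35 for SNRPA, 0.29 for PRPF31, 0.29 for PRPF8, 0.28 for SNU13, 0.17 for SF3A1, 0.16 for RBM17, 0.16 for USP39, 0.15 for PPIH and 0.11 for SNRNP200. It was negative for the other 7, with -0.36 for SF3B6, -0.36 for U2AF1, -0.34 for PHF5A, -0.34 for PRPF6, -0.28 for U2SURP, -0.17 for SF3B1 and -0.14 for PRPF3. The number of members that differed was 8 without replicate 2 and 10 without replicate 3. The difference was smaller in size than the mean change for PRPF3, RBM17, SNRNP200 and PHF5A, and slightly larger for SF3B1, and both orientation means of these genes had the same sign. It was larger than the mean for the other members called higher, namely SF3A2, SART1, SF3B6, PRPF6, PRPF31, SNU13, SF3A1, USP39 and PPIH, and for SNRPA, SF3B2, EFTUD2, PRPF8, U2AF1 and U2SURP, whose means did not pass. The cause of the differences between orientations was not tested.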

How the results depend on the processing

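Of 561 single results over the alternatives, 463 counted as unchanged. These kept their side of the threshold, and also their direction where the value passed in either setting. Where it passed in neither, it moved by no more than the SD of the replicates. Another 5 passed in neither setting and moved by more than that. The number of members called lower was 7, with 4 to 11 when a replicate was left out (5 without replicate 1, 11 without replicate 2, 4 without replicate 3) and 3 under the rule of both orientations. The number called higher was 12, with 4 to 15 (6, 15 and 4 in that order), 6 on the dye-swap arrays alone, 6 at an adjusted p of 0.01 and 3 under the rule of both orientations. Past 1.3-fold, lower calls were 4 on the direct arrays alone and 1 when genes with 3 or more features were fitted alone, and higher calls were 3 on the direct arrays alone, 0 on the dye-swap arrays alone, 0 for genes with 3 or more features and 0 to 1 without a replicate. The members differing between orientations numbered 8 to 20 without a replicate (8 without replicate 2, 10 without replicate 3). With the replicate block, 8 members were lower and 12 higher. SART1 (adjusted p = 0.0526) and SNU13 (0.103) were lost, and SNRNP40, SNRNP70 and U2AF2 gained. Features were 275 lower and 315 higher, and index calls 2 and 5. In that fit limma's correlation of residuals within a replicate, with no dye term, was -0.51. The log2 ratios of the paired arrays themselves correlated at 0.593, 0.55 and 0.634 in replicates 1, 2 and 3. Lower features were 441 on the dye-swap arrays alone and 123 to 306 without a replicate, and higher features 119 to 291, the lowest counts without replicate 3. Lower index calls were 0 at a fold over 2, 258 with no fold limit, 4 on direct and 16 on dye-swap arrays alone, and higher ones 0, 210 and, on dye-swap arrays alone, 9. Signs turned on the direct arrays alone for SNRPA (0.13), SF3B6 (-0.030), U2SURP (-0.12), EFTUD2 (0.23) and PRPF6 (-0.053), on the dye-swap arrays alone for SF3A1 (-0.0095), SF3B2 (-0.21), PRPF8 (-0.10), PRPF31 (-0.043), SNU13 (-0.073), SART1 (-0.10) and USP39 (-0.00083), and without replicate 2 for TXNL4A (-0.045 to 0.10 over replicates left out). Values that passed in neither setting were not counted as turned, whatever their sign. The causes were not tested. Both scaling alternatives kept all 19 calls and added SNRNP70 and U2AF2. With 3 replicates and ratios alone, small changes and single-feature genes are the least secure.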
